A study of Rattus norvegicus with 6 samples.

Results

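The digestive enzymes of the acinar cell were followed through laser-captured pancreatic duct glands of HIP and wild-type (WT) rats. The 9 genes were taken by symbol, Prss1, Ctrb1, Cela1, Cpa1, Cpb1, Amy2, Pnlip, Cel and Pla2g1b, and all 9 were present among 15677 distinct gene symbols. Both groups were Sprague-Dawley rats. HIP rats express human islet amyloid polypeptide from a transgene that is active in beta cells, and were taken while pre-diabetic, as animals that model type 2 diabetes. WT rats lack the transgene, and the labels give no age or sex for either group. Glands were recognised by their morphology in stained sections and cut out by laser, so the captured material had no marker or sort behind it. There were 3 HIP libraries (HIP30, HIP2 and HIP3) and 3 WT libraries (WT26, WT1 and WT4), named by group and by the number in their titles. Whether the 6 libraries stand for 6 separate rats is not stated, and the p-values given here reflect scatter among libraries that could be technical in part.

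Acinar cells make most of the enzymes that digest food in the gut and store them in zymogen granules, many as inactive precursors. Duct cells line the tubes that carry this juice away, and the duct glands are mucin-producing outpouchings of the larger ducts. The transcription factor complex PTF1, built from PTF1A, an E-protein and RBPJL or RBPJ, drives most acinar enzyme genes and binds a paired site of an E-box and a TTTCCC element. In whole pancreas the enzyme transcripts are among the most abundant of all, so a few acinar cells or free acinar RNA can be seen in captures of other cells.

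Library totals ran from 15141136 to 16709667 reads in HIP and from 15821742 to 17574682 reads in WT. Levels are given as CPM, read counts scaled to a common library size with TMM factors, and 1 read was worth 0.0596 to 0.0614 CPM. Reads were not divided by transcript length, so CPM values are compared between libraries and not between genes. All 10 measured markers of duct epithelium had reads in each of the 6 libraries, with sums of 7762 to 10644 CPM in HIP and 8308 to 24125 CPM in WT. Of the 4 measured markers of mucous glands, Tff1, a trefoil peptide, had 0, 25.6 and 192 CPM in HIP30, HIP2 and HIP3, against 297, 287 and 64.3 CPM in WT26, WT1 and WT4. The other 3 had reads in all 6 libraries, though Tff2 had only 3 reads, or 0.179 CPM, in WT26, against 9.30 CPM in HIP30.

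The promoters of 4 enzymes are shown, picked after their values were seen. Cela1 and Cpb1 had reads in all 6 libraries, and Ctrb1 and Cel had none in HIP30 and WT26, as the values that follow describe. Promoter windows from RefSeq (GRCr8, 250 bases before to 50 bases after the gene start) matched 8 of the 9 enzymes by symbol. Amy2 stands as a synonym on 2 RefSeq genes and was not matched. Capitals mark 4 motifs searched on both strands: the E-box CANNTG, the TTTCCC element, AAGGTCA, which the acinar factor NR5A2 recognises, and TATAAA. In Cel an E-box and the AAGGTCA motif overlap, and no other pair overlaps in the 8 windows.
Cela1 promoter, GRCr8 chr7:133665012-133665311, minus strand: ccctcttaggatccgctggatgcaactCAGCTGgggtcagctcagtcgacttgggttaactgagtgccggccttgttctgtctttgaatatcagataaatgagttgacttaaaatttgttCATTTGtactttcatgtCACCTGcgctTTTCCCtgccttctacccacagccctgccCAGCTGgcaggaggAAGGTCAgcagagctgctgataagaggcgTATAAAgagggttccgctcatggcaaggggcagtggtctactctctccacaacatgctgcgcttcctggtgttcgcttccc
Cpb1 promoter, GRCr8 chr2:104714613-104714912, minus strand: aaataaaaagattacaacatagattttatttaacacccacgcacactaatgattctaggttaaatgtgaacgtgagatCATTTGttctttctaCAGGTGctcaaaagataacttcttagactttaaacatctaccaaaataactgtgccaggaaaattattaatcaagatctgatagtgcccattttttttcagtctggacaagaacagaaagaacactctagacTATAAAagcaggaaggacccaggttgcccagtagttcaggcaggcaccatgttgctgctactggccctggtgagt
Ctrb1 promoter, GRCr8 chr19:56566929-56567228, minus strand: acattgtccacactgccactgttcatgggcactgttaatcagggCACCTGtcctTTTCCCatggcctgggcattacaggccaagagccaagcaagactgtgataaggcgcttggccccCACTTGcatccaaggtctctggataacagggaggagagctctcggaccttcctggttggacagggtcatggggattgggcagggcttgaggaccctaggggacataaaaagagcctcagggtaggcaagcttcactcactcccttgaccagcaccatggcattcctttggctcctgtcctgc
Cel promoter, GRCr8 chr3:32288970-32289269, minus strand: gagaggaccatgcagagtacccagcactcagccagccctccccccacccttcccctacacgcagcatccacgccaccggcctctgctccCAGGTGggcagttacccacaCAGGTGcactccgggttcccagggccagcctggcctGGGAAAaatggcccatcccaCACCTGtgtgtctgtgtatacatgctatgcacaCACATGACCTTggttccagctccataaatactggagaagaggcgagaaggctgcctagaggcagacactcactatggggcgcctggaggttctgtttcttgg

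An E-box was found in 7 of the 8 enzyme promoters and in 72.1% of 33469 promoters of the same length, and TTTCCC in 6 of the 8 and in 25.1% of all. TATAAA was found in 5 of the 8 and in 14.2% of all, and AAGGTCA in 2 of the 8, Cela1 and Cel, and in 4.61% of all. An E-box and a TTTCCC element lay within 30 bases of each other in 4 of the 8, Cela1, Ctrb1, Pla2g1b and Cel, and in 6.29% of all. In Cela1 and Ctrb1 the letters CACCTG stood 4 bases from TTTCCC in the same order, as CACCTGCGCTTTTCCC and CACCTGTCCTTTTCCC. This spacing, chosen after the windows were seen, was found in 9 of all promoters (0.0269%). Beside Cela1 and Ctrb1 these were Prss2, another trypsin gene, and Arpc2, Arrdc5, Drc12, Fbxl2, Polr1d and LOC102554637. The 2 enzymes that share it, Cela1 and Ctrb1, had different profiles across the 6 libraries.

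The endopeptidases showed both of these profiles. Prss1, which encodes a trypsinogen, had no read in HIP30, 9 reads or 0.549 CPM in HIP2 and 121 reads or 7.41 CPM in HIP3, against no read in WT26, 2 reads or 0.123 CPM in WT1 and 139 reads or 8.45 CPM in WT4. Ctrb1, a chymotrypsinogen, had 0, 1.04 and 20.0 CPM in HIP30, HIP2 and HIP3, against 0, 0.184 and 18.1 CPM in WT26, WT1 and WT4. HIP3 and WT4 were thus high, HIP2 and WT1 low and HIP30 and WT26 without a read, so that the groups overlapped over their whole range. Cela1, an elastase of the same serine protease family, had 23.6, 14.8 and 22.5 CPM in HIP30, HIP2 and HIP3, against 35.3, 20.0 and 21.9 CPM in WT26, WT1 and WT4. It stood within a narrow range, and its highest level was in WT26, where Prss1 and Ctrb1 had no read.

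Where a gene had no read, the level compatible with no read reached 0.182 CPM in HIP30, 0.179 CPM in WT26 and 0.184 CPM in WT1 (3 reads, counting error only). The reads carry no molecular identifiers, so neither these limits nor the intervals given here cover losses before sequencing.

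The carboxypeptidases trim amino acids from the ends of peptides that the endopeptidases release. Cpa1, which acts on aromatic and aliphatic ends, had 0, 0.305 and 11.2 CPM in HIP30, HIP2 and HIP3, against 0, 0.0614 and 2.92 CPM in WT26, WT1 and WT4. Its profile followed that of the trypsinogen, with HIP3 above WT4. Cpb1, which acts on basic ends, had 169 reads or 10.3 CPM in HIP30, 156 reads or 9.52 CPM in HIP2 and 340 reads or 20.8 CPM in HIP3. In the WT libraries it had 18 reads or 1.07 CPM in WT26, 47 reads or 2.89 CPM in WT1 and 179 reads or 10.9 CPM in WT4. The HIP libraries all stood near or above the highest WT library, WT4, and HIP30 carried Cpb1 without a read of Cpa1. The exact 95% Poisson intervals of HIP30 (8.78 to 11.9 CPM), HIP2 (8.09 to 11.1 CPM) and WT4 (9.35 to 12.6 CPM) overlapped, while those of WT26 (0.636 to 1.70 CPM) and WT1 (2.12 to 3.84 CPM) lay lower.

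The enzymes of starch and fat followed Prss1. Amy2, a pancreatic amylase, had 0, 0.672 and 9.99 CPM in HIP30, HIP2 and HIP3, against 0, 0.123 and 6.63 CPM in WT26, WT1 and WT4. Pnlip, the lipase of dietary triglycerides, had 0, 0.244 and 4.17 CPM in the same order of HIP libraries, against 0, 0 and 2.92 CPM in WT26, WT1 and WT4. Pnlip was the enzyme without a read in WT1, while the other 8 had at least 1 read there. Pla2g1b, a secreted phospholipase of pancreatic juice, had 0, 0.244 and 16.9 CPM in HIP30, HIP2 and HIP3, against 0, 0.184 and 11.8 CPM in WT26, WT1 and WT4. Cel, the bile salt-activated carboxyl ester lipase, had 0, 1.04 and 34.4 CPM in HIP30, HIP2 and HIP3, against 0, 1.17 and 10.2 CPM in WT26, WT1 and WT4. HIP2 and WT1 did not differ in Cel beyond counting error, with 17 and 19 reads.

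**Figure D1:**
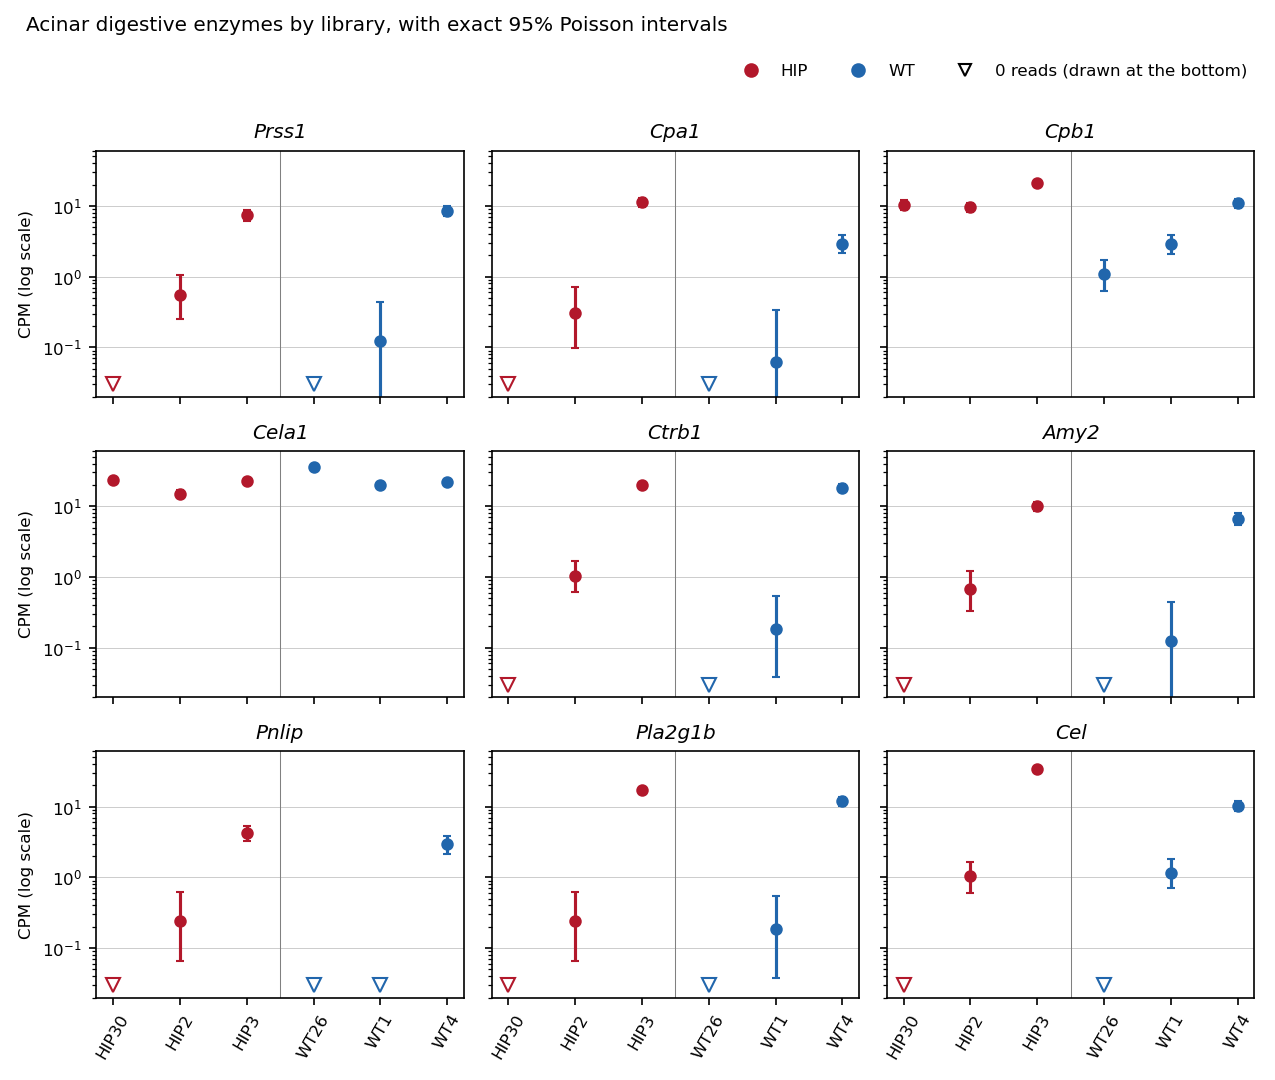
CPM of each of the 9 enzymes (log axis) in the 3 HIP libraries (left, red) and the 3 WT libraries (right, blue), with exact 95% Poisson intervals, cut at the lower edge of the axis, and open triangles for 0 reads. Cela1 and Cpb1 have reads in all 6 libraries, whereas the other 7 have none in HIP30 and WT26 and their highest levels in HIP3 and WT4.

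Of the 9 enzymes, 7 had no read in either HIP30 or WT26, and 2, Cela1 and Cpb1, had reads in all 6 libraries. Over all 15675 genes with a read in any library, 11.6% had none in HIP30 and WT26, 75.8% had a read in every library, and 2.78% combined no read in HIP30 and WT26 with their highest levels in HIP3 and WT4. HIP3 and WT4 were the highest 2 libraries for 8 of the 9 enzymes, by a margin below counting error for Cpb1, and for 8.87% of all genes. The number of genes without a read ran in the same order within each group, with 2440, 2155 and 1837 in HIP30, HIP2 and HIP3, against 2822, 2488 and 672 in WT26, WT1 and WT4. WT4 stood apart in this number, and its part in the enzyme levels was not tested. Summed over the 7 enzymes, a set formed after the values were seen and used for description only, there were 0, 67 and 1699 reads in HIP30, HIP2 and HIP3, against 0, 30 and 1003 reads in WT26, WT1 and WT4. As CPM the sums were 4.09 in HIP2 and 104 in HIP3, against 1.84 in WT1 and 61.0 in WT4. All 9 enzymes together took 0.00289% to 0.0144% of reads in the HIP libraries and 0.0023% to 0.00975% in the WT libraries. Fewer acinar cells in a capture and less enzyme RNA per cell cannot be told apart in such bulk samples. HIP30 and WT26 are also the libraries whose titles carry numbers outside the run of 1 to 4, and the labels do not say what these numbers stand for.

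The comparison of HIP with WT addressed duct gland transcripts in rats whose beta cells are under stress. No enzyme passed the test after adjustment over all genes. The 9 enzymes summed to 69.9 ± 67.2 CPM in HIP and 51.6 ± 37.0 CPM in WT (SD, n = 3 each), and the groups overlapped for all 9, where 9.54% of the 12102 genes tested had groups that did not overlap. A filter on low values kept 5 of the 9 enzymes, Cpb1, Cela1, Ctrb1, Amy2 and Cel, and 0 of these passed limma's test at a Benjamini-Hochberg adjusted p of 0.05. Over all genes tested limma also called 0 (0.0%), with 792 (6.54%) at an unadjusted p under 0.05, and limma-voom called 0, with 914 at an unadjusted p under 0.05. Of the 5 tested enzymes 4 had a positive difference, beside 51.1% of all genes tested.

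Cpb1 had the lowest p of the 5. It averaged 13.5 ± 6.32 CPM in HIP and 4.95 ± 5.22 CPM in WT (SD, n = 3 each), that is 1.91 on the log2 scale (SE 0.78) with a 95% interval of 0.11 to 3.71. By limma the unadjusted p was 0.0401, which made Cpb1 the 1 of the 5 tested enzymes under 0.05, beside 3.29% of all genes tested that were under 0.05 and higher in HIP, and the Benjamini-Hochberg adjusted p 0.691. The difference was positive in each alternative fitted, from 1.15 without WT26 to 2.76 without WT4, and the adjusted p ran from 0.0963 without WT4 and HIP3 to 0.9999 among the libraries numbered 1 to 4.

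Cela1 averaged 20.3 ± 4.81 CPM in HIP and 25.7 ± 8.34 CPM in WT, that is -0.32 on the log2 scale (SE 0.32) with a 95% interval of -1.07 to 0.42 (limma, adjusted p = 0.841). This interval is the narrowest of the 5, and it leaves room for a change in either direction. Ctrb1, Amy2 and Cel differed by 0.69, 0.76 and 0.53 on the log2 scale, with standard errors of 2.25, 1.93 and 2.19 (limma, adjusted p = 0.963, 0.948 and 0.971). The interval of Ctrb1 ran from -4.51 to 5.89. Without HIP3 the differences of Ctrb1, Amy2 and Cel were -1.23, -0.91 and -1.64, and without WT4 they were 2.88, 2.52 and 2.10. The 4 enzymes below the filter, Prss1, Cpa1, Pnlip and Pla2g1b, had log2 differences of 0.42, 1.04, 0.70 and 0.26 in a fit of all 15675 genes with a read, with standard errors of 1.90, 1.81, 1.62 and 2.17. For Prss1 the means of CPM ran the other way, with 2.65 ± 4.13 CPM in HIP and 2.86 ± 4.84 CPM in WT (SD, n = 3 each). None of these passed limma's test, where the adjusted p ran from 0.911 for Cpa1 to 0.984 for Pla2g1b.

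**Figure D2:**
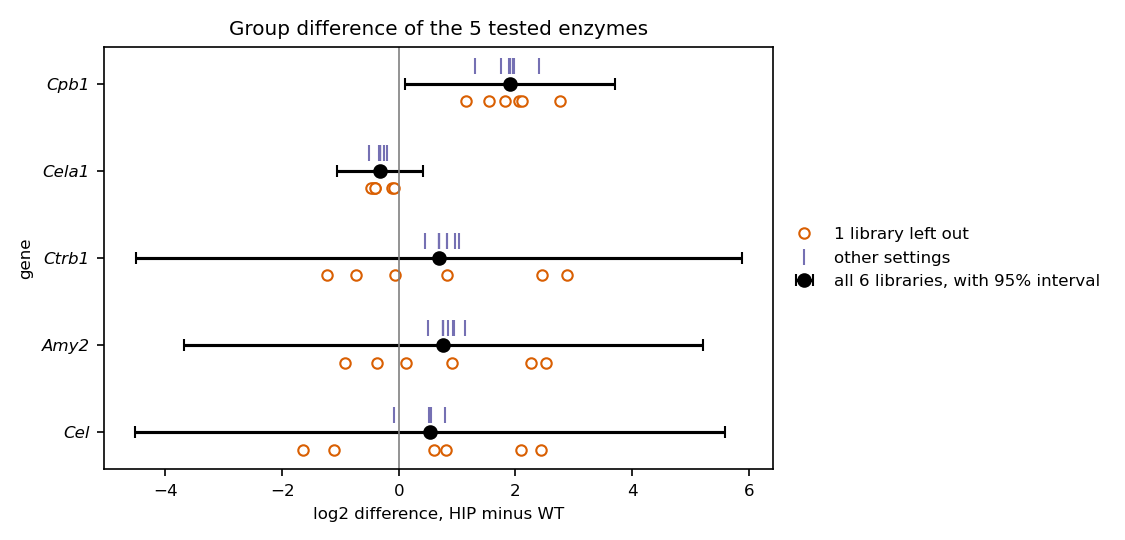
Log2 difference of HIP minus WT for the 5 enzymes that passed the filter, with its 95% interval over all 6 libraries (black), the values with 1 library left out (orange circles) and the values under other settings (violet marks). Cela1 has the narrowest interval (-1.07 to 0.42), Cpb1 stays above 0 in every setting drawn, and Ctrb1, Amy2 and Cel take either sign.

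The proportions of the 7 enzymes differed between HIP3 and WT4, the libraries with enough reads to compare them. A share is given of the reads of these 7 genes in a library, with its exact Clopper-Pearson 95% interval, and compares 2 libraries and not the conditions. Cel took 33.0% (30.8 to 35.3) in HIP3 and 16.7% (14.4 to 19.1) in WT4. Cpa1 took 10.8% (9.34 to 12.3) in HIP3 and 4.79% (3.55 to 6.30) in WT4. Both were thus larger in HIP3, with intervals that did not overlap. In the other direction, Ctrb1 took 19.2% (17.4 to 21.2) in HIP3 and 29.7% (26.9 to 32.6) in WT4, and Prss1 7.12% (5.94 to 8.45) in HIP3 and 13.9% (11.8 to 16.2) in WT4. The intervals overlapped for Amy2, at 9.59% in HIP3 and 10.9% in WT4, for Pnlip, at 4.002% in HIP3 and 4.79% in WT4, and for Pla2g1b, at 16.2% in HIP3 and 19.3% in WT4.

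As a ratio of CPM, HIP3 over WT4, the 7 enzymes ran from 0.877 for Prss1 (exact 95% interval 0.682 to 1.13) to 3.84 for Cpa1 (2.78 to 5.40), with 3.39 for Cel (2.84 to 4.05). Cela1 had a ratio of 1.03 (0.886 to 1.19) and Cpb1 of 1.91 (1.59 to 2.31). In WT1, Cel made up 19 of the 30 reads of the 7 enzymes, a share of 63.3% (43.9 to 80.1), above its shares in HIP2 (25.4%, 15.5 to 37.5), HIP3 and WT4.

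**Figure D3:**
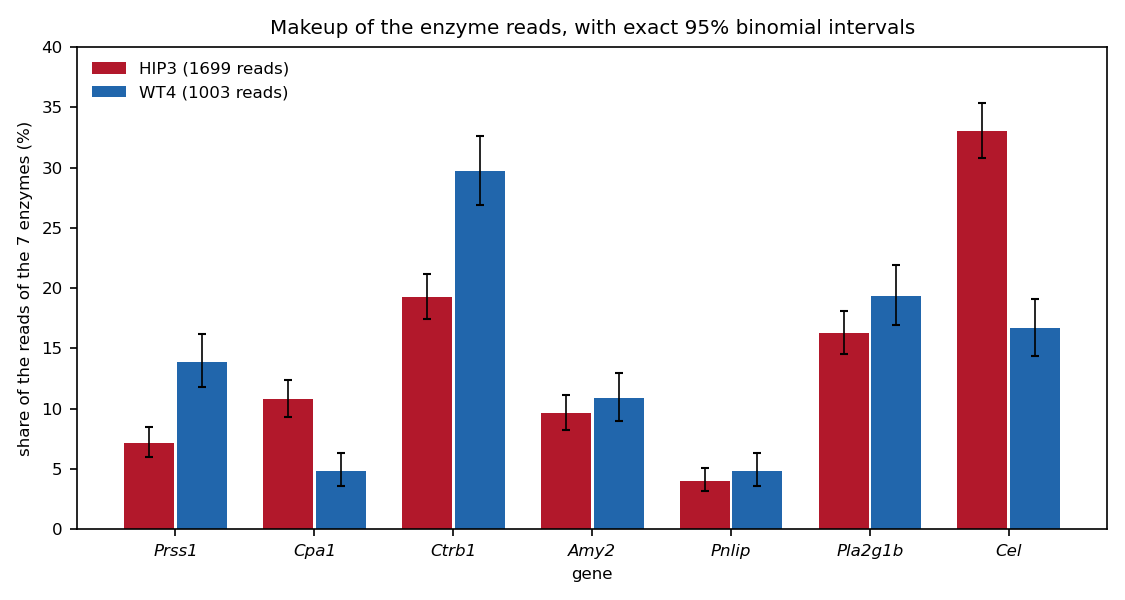
Share of each of the 7 enzymes without reads in HIP30 and WT26 among their summed reads (%), in HIP3 (red, 1699 reads) and WT4 (blue, 1003 reads), with exact 95% binomial intervals. Cel and Cpa1 have the larger share in HIP3, and Prss1 and Ctrb1 in WT4.

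Of the 11 measured islet markers, 9 had their highest levels in HIP3 and WT4, as the 7 enzymes did, and Sst and Ppy did not. Ins1, an insulin gene, had 0, 102 and 3717 CPM in HIP30, HIP2 and HIP3, against 0, 69.0 and 7760.0 CPM in WT26, WT1 and WT4. The 11 markers summed to 261 to 5099.5 CPM in HIP and 0 to 11429 CPM in WT, with all 11 at 0 in WT26 and 7 at 0 in HIP30. Sst, the somatostatin gene of delta cells, ran the other way in HIP, with 246, 172 and 10.2 CPM in HIP30, HIP2 and HIP3, against 0, 27.6 and 35.0 CPM in WT26, WT1 and WT4. Ppy, the pancreatic polypeptide gene, had 9.91, 7.08 and 0.613 CPM in HIP30, HIP2 and HIP3, against 0, 0.307 and 22.1 CPM in WT26, WT1 and WT4. Both were highest within HIP in HIP30, where the 7 enzymes had no read. For every 1000 reads of Ins1, the 7 enzymes had 40.05 reads in HIP2 (exact 95% interval 30.9 to 51.1) and 28.0 in HIP3 (26.7 to 29.4), against 26.7 in WT1 (17.9 to 38.3) and 7.86 in WT4 (7.38 to 8.36). The ratio was lowest in WT4, which had the most Ins1. Between HIP3 and WT4 the enzymes and the insulin genes went apart, since the ratio of HIP3 over WT4 was 0.479 for Ins1 and 0.389 for Ins2. The part of islet or acinar tissue in the enzyme levels was not tested.

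**Figure D4:**
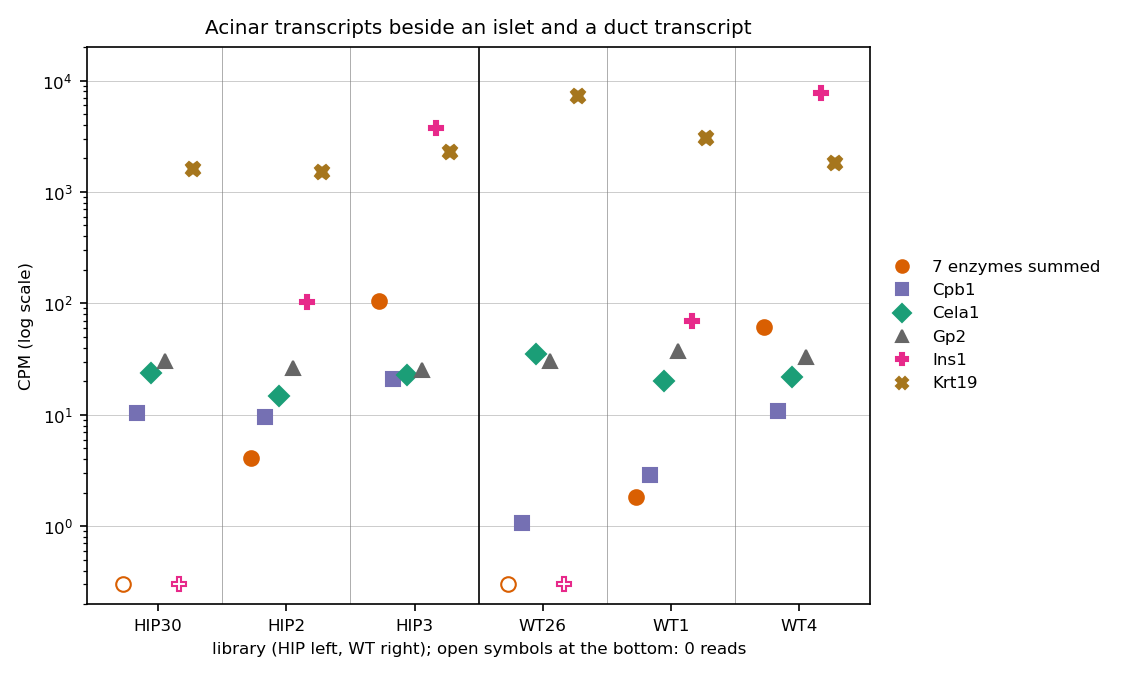
CPM (log axis) of the 7 enzymes summed, of Cpb1, Cela1 and the granule protein gene Gp2, of the insulin gene Ins1 and of the duct keratin gene Krt19, by library, HIP left and WT right, with open symbols for 0 reads. The 7 enzymes were chosen for having no read in HIP30 and WT26, where Ins1 is also at 0. Cpb1, Cela1 and Gp2 have reads in both of these libraries.

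The 5 measured endothelial markers had reads in all 6 libraries and summed to 112 to 158 CPM in HIP and 107 to 183 CPM in WT, with the highest sum of each group in HIP3 and WT4. The 8 fibroblast markers summed to 431, 777 and 1776 CPM in HIP30, HIP2 and HIP3, against 1437, 2031 and 2203 CPM in WT26, WT1 and WT4, the same order within each group as the 7 enzymes. All 8 had a negative difference of HIP minus WT, with a median of -1.28, where 51.1% of all genes tested were positive. By limma, 5 of the 8 were at an unadjusted p under 0.05, beside 6.54% of all genes tested, and 0 were called. The groups did not overlap for 3 of the 8, beside 9.54% of all genes tested. The 8 immune markers summed to 143 to 176 CPM in HIP and 87.9 to 212 CPM in WT. Of these, 6 were tested, and all 6 had a positive difference, with a median of 0.70. By limma, 1 of the 6, Itgam, was at an unadjusted p under 0.05, and 0 were called. Itgam was also the 1 tested immune marker whose groups did not overlap. The 7 mast cell markers summed to 45.4 to 121 CPM in HIP and 100.4 to 142 CPM in WT. Nearly all of this was Kit, with 43.8 to 120 CPM in HIP and 99.0 to 142 CPM in WT. Among the rest, Cpa3, Mcpt2 and Mcpt1 had higher means in HIP, and Tpsb2, Cma1 and Ms4a2 lower ones. These means were low, at most 0.833 CPM (Mcpt2 in HIP), so the sum describes Kit and not the other mast cell markers. The part of these cell types in the enzyme levels was not tested.

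Among other secreted enzymes of acinar cells, 8 of 16 measured genes had no read in HIP30 and WT26 but reads elsewhere, 4 had reads in all 6 libraries and 4 fell in neither class. Of the 8, Try4 and Klk1c2 had reads in WT4 alone, 1 and 4 of them. Rnase1, the secreted pancreatic ribonuclease, had 0, 1.16 and 22.9 CPM in HIP30, HIP2 and HIP3, against 0, 0.307 and 14.2 CPM in WT26, WT1 and WT4. Prss3, a further trypsinogen, had 0, 0.305 and 15.7 CPM in the HIP libraries, against 0, 0.430 and 8.39 CPM in WT26, WT1 and WT4. Both followed Prss1. Ctrl, a chymotrypsin-like protease, had 1.58, 3.54 and 4.53 CPM in HIP30, HIP2 and HIP3, against 4.83, 3.01 and 3.404 CPM in WT26, WT1 and WT4. Cela2a, a second elastase, had 4.13, 1.83 and 3.98 CPM in HIP30, HIP2 and HIP3, against 2.44, 0.798 and 7.23 CPM in WT26, WT1 and WT4. Like Cela1, these were measured in libraries where Prss1 and Ctrb1 had no read. Reads shared between the trypsin genes, or between amylase genes, could have been dropped or split by the counting. Single values of Prss1, Prss3 and Amy2 are therefore uncertain.

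Of the 6 genes of this list that were tested, 0 passed limma's test in either direction, 3 were positive and 3 negative, and the median difference was 0.01, equal to the median of 0.01 over all genes tested. Of 7 tested genes for granule proteins and trypsin inhibitors 0 passed, 3 were positive and 4 negative, with a median of -0.21. The most abundant of these, Ctse, Rab3d, Rab27b and Vamp8, serve secretion or proteolysis in many epithelia and had reads in all libraries, from 26.8 CPM for Vamp8 to 635 CPM for Ctse. The groups did not overlap for 2 of the 7, Gp2 and Zg16, named after their values were seen, beside 9.54% of all genes tested. Gp2, the main membrane glycoprotein of zymogen granules, had 30.1, 26.4 and 25.0 CPM in HIP30, HIP2 and HIP3, against 30.6, 37.5 and 32.8 CPM in WT26, WT1 and WT4, with a log2 difference of -0.31 (limma, adjusted p = 0.754). Zg16, a lectin of granules and mucus, had 2.01, 1.34 and 2.63 CPM in the HIP libraries, against 0, 0.0614 and 1.34 CPM in WT26, WT1 and WT4, with a log2 difference of 2.68 (limma, adjusted p = 0.691). The gap between the groups was below counting error for both genes, with 22 reads of Zg16 each in HIP2 and WT4, and 496 reads of Gp2 in HIP30 against 514 in WT26.

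**Figure D5:**
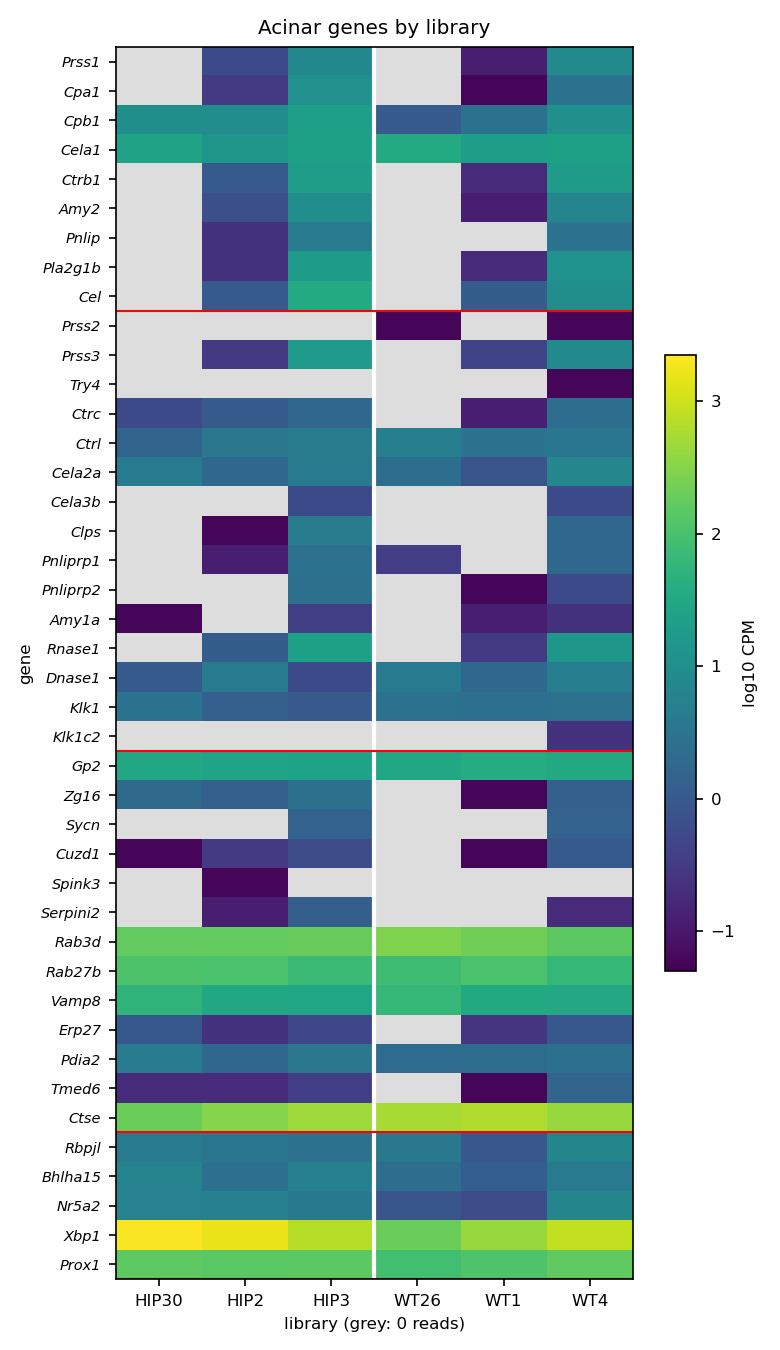
Log10 CPM of the 9 enzymes (top block) and, between red lines, of other secreted enzymes, granule proteins and trypsin inhibitors, and transcription factors, with HIP libraries left and WT libraries right and grey for 0 reads. Prss1, Rnase1 and Prss3 share grey fields in HIP30 and WT26, while Cela1, Cpb1, Ctrl, Cela2a, Gp2 and the 5 measured transcription factors are filled in all 6 libraries.

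Of 7 listed transcription factors of acinar cells, 5 were among the measured genes, and these 5 had reads in every library. Ptf1a, the gene of PTF1A, was not among the measured genes. All 5 tested genes had a positive difference, beside 51.1% of all genes tested, with a median of 0.88, and 0 of the 5 passed limma's test. Rbpjl, the acinar-specific RBPJ relative within PTF1, had 4.01, 3.30 and 2.88 CPM in HIP30, HIP2 and HIP3, against 3.64, 0.921 and 6.93 CPM in WT26, WT1 and WT4. Bhlha15, which shapes the secretory apparatus of acinar cells and was named after its values were seen, had 6.02, 2.503 and 5.39 CPM in the HIP libraries, against 2.44, 1.23 and 4.01 CPM in WT26, WT1 and WT4. Nr5a2, a nuclear receptor that works with PTF1, had 5.71, 5.25 and 3.74 CPM in the HIP libraries, against 0.894, 0.614 and 6.505 CPM in WT26, WT1 and WT4. All 3 were thus present in HIP30 and WT26, where the 7 enzymes had no read. Xbp1 and Prox1, which many secretory or duct cells also use, reached up to 2088 and 162 CPM, and Xbp1 differed by 1.69 on the log2 scale (limma, adjusted p = 0.691).

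Of 6 tested acinar receptors and channels 4 were positive and 2 negative, with a median of 0.45, and 0 passed limma's test. Sctr, the secretin receptor, had 194, 117 and 21.3 CPM in HIP30, HIP2 and HIP3, against 0, 7.49 and 49.4 CPM in WT26, WT1 and WT4. It is also the receptor of duct cells. Within HIP its order was the reverse of that of the 7 enzymes, and within WT it was the same. It differed by 4.46 on the log2 scale (limma, adjusted p = 0.691). Cckar, the cholecystokinin receptor through which acinar cells are driven to secrete in rodents, had 0.304, 0.794 and 2.39 CPM in the HIP libraries, against 0, 0.0614 and 5.78 CPM in WT26, WT1 and WT4. This receptor, named after its values were seen, thus had its highest levels in HIP3 and WT4. Of 4 tested genes that activate, inhibit or sense pancreatic proteases, Ctsb, Serpina1, F2rl1 and Pebp1, all were negative, with a median of -0.33, and 0 passed. Over all genes tested 51.1% were positive. Ctsb, a lysosomal protease that can activate trypsinogen, had 599, 510.0 and 536 CPM in HIP30, HIP2 and HIP3, against 944, 698 and 525 CPM in WT26, WT1 and WT4.

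The genes with the profile most like the summed level of the enzymes were sought among 11670 tested genes by the root mean square distance of centred log2 values over the 6 libraries. For the sum of all 9 the nearest was Hoxb4, a homeobox factor, at a distance of 0.16, followed by Cd3g, Plvap, Tbkbp1, Mrvi1 and Prr22 at 0.31 to 0.39. In HIP30 and WT26 this sum held reads of Cela1 and Cpb1 alone, with 69.7% and 97.0% from Cela1. Hoxb4 had 1.46 CPM in HIP30 and 1.43 CPM in WT26, where the other 7 enzymes had no read. For the sum of the 7 enzymes, a choice made after their values were seen, the nearest were Scg3, a secretogranin of endocrine granules, with a distance of 0.66, Slc2a2, the glucose transporter of rodent beta cells, at 0.70, Iapp, the rat amyloid polypeptide of beta cells, at 0.91, and Rnase1 at 0.98. Of these 4, Scg3, Slc2a2 and Iapp are genes of islet cells and Rnase1 is a gene of acinar cells. Scg3 had 0, 2.81 and 27.3 CPM in HIP30, HIP2 and HIP3, against 0, 1.11 and 30.03 CPM in WT26, WT1 and WT4.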

How the data were processed

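RNA of laser-captured duct glands was extracted and made into libraries with kits for very small inputs, per the labels' protocols. STAR, HTSeq, edgeR, limma and the build rn5 are listed, without versions, per the submitters' processing notes. Strand handling is not stated there. For 15679 rows the authors deposited a log2 CPM value per gene and library. A gene without reads stands at -6.04, and once this prior was taken off, whole reads came out for 100.0% of the deposited values within 0.1 reads. The 4 rows of March1 and March2 were left out of tests.

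TMM factors were computed with trims of 30% and 5%. Values were taken as log2(CPM + 0.121), the pseudocount being worth 2 reads, which understates changes of low genes, and tested with the trend option of limma 3.58.1 (R 4.3.3). A gene was kept with at least 0.610 CPM (10 reads at median size) in at least 3 libraries and at least 15 reads overall. This kept 12102 genes, and p-values were adjusted over these by Benjamini-Hochberg at 0.05. A quasi-likelihood count test was not run, since the authors deposited log2 values and not counts, and limma-voom on the recovered reads was the alternative. Poisson and binomial intervals are exact at 95%, from scipy 1.17.1. Steps were tested on simulated data.

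The 9 enzymes and all lists were chosen with earlier results of these data known. Named genes were all 9 enzymes, up to 4 genes per acinar list with the highest mean CPM, leading markers and the 6 nearest profiles. Not every such marker is printed, and 1 gene of the acinar lists is not reported here. Alternatives covered scaling, pseudocount, filter, limma-voom, a term for the number series of the titles and leaving out libraries. Figures were drawn with matplotlib 3.10.9.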

Additional observations from a re-analysis of the deposited data

How the results depend on the processing

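The count of 0 genes called by limma at an adjusted p of 0.05 held under all 15 alternatives. Genes at an unadjusted p under 0.05 numbered 792 with all libraries, 280 without HIP30, 235 without HIP2, 1804 without HIP3, 338 without WT26, 336 without WT1, 1605 without WT4, 2602 without both WT4 and HIP3 and 156 among the libraries numbered 1 to 4. The 5 enzymes past the filter were fitted under all 15, and Prss1, Cpa1, Pnlip and Pla2g1b only without the filter. Cpb1 stayed positive and Cela1 negative in all 15. Cela1 was -0.07 without WT26, -0.11 without HIP2, -0.48 without WT1 and -0.50 without both WT4 and HIP3. Leaving out 1 library moved Ctrb1 between -1.23 (without HIP3) and 2.88 (without WT4), with -0.74 without WT26 and -0.07 without WT1. Amy2 ran from -0.91 (without HIP3) to 2.52 (without WT4), with -0.37 without WT26. Cel ran from -1.64 (without HIP3) to 2.43 (without HIP30), with -1.10 without WT26, and was -0.0761 without both WT4 and HIP3. The log2 ratio of the summed enzymes, 0.44 with all libraries, ran from -0.73 without HIP3 to 1.20 without WT4, with 0.77 without HIP30, 0.81 without HIP2, 0.24 without WT26 and 0.10 without WT1. It was 0.03 without both WT4 and HIP3 and 0.94 without Cela1. No paired analysis was possible because the numbers in the titles are not shared between the groups. The 7 enzymes were chosen for having no read in HIP30 and WT26, and had at most 19 reads each in HIP2 and WT1. Library totals were similar, with the most reads in WT26, while genes without a read numbered 2822 in WT26 and 672 in WT4. The part of library depth or makeup in the enzyme reads was not tested.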
